A study of Mus musculus with 10 samples.

Results

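The first 4 h after a change to fresh neutral medium were followed in mouse Lewis lung carcinoma (LLC) cells, a line grown from a lung tumour of the C57BL/6 strain. The comparison set cells kept at pH 7.4 for 4 h against cells sampled just before treatment, within each of 2 lines. It uses 4 of the 10 arrays of the series, chosen by their labelled line, pH and time and not by any measured value. The TDAG8 line carried TDAG8, a proton-sensing receptor whose gene symbol is Gpr65, stably expressed, and the control line carried the control vector; their cells are called TDAG8 cells and vector cells here. Whether either line is a single clone, and which promoter drove the receptor, is not given in the sources used here. All groups had spent 12 h without serum, in DMEM with 0.1% bovine serum albumin at pH 7.4, before the first sampling. The medium was then exchanged for the same serum-free medium, at pH 7.4 in the arrays compared here. Each array received RNA mixed from 4 cultures, so 1 array stood for each line and state and the 2 lines served as matched repeats. The spread between cultures is averaged away by the mixing, and the p-values below do not measure it. They rest on how unequally the 2 lines changed over the states fitted. That spread holds array noise and any real difference between the lines, which cannot be told apart. The fit behind the p-values also held both arrays at pH 7.4 for 12 h, 6 arrays in all, which add to the estimate of the spread.

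A medium change removes whatever the cells had secreted and returns nutrients they had used, without adding serum. Several pathways are known to follow such conditions. NF-kB factors drive chemokine genes and the genes of their own inhibitors, and secreted cytokines can keep this program on in cultured tumour cells. SREBP factors drive the enzymes of cholesterol and fatty acid synthesis. The factor ATF4 drives amino acid transporters and synthetases when amino acids run short or other stress pathways are active. E2F and Myc factors drive genes of DNA replication and of ribosome building.

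Expression was read as deposited signal intensity, a linear value per probe set, on arrays whose median signal was 11.7 to 13.8. Differences are log2 values after quantile normalisation, with 2.4 added to every signal, and 0.58 on this scale is 1.49-fold. Because of that normalisation, a log2 difference need not equal the ratio of the deposited signals printed beside it. Of 18193 genes with a probe set, 12161 passed the filter on low values and were tested, and fold values of dim genes lean on the added constant. The Gpr65 probe set had a mean signal of 2.6 over the 4 arrays, near background, and so gives no check of the lines' labels. Among defining markers, the keratin gene Krt8 read 1739.4 to 2098.9, but 6 of 10 epithelial markers, Cdh1 among them, stayed under a signal of 20 on all 4 arrays. Of 9 alveolar lung markers 7 were under 20, Sftpc and Nkx2-1 included, while Hopx read 164.5 to 216. The collagen gene Col3a1 read 4432.7 to 6573, and the fibroblast markers summed to 9039.5 to 10898.2, while 3 of 8 of them, Col1a1, Col1a2 and Thy1, were under 20 on all 4 arrays. Leukocyte markers summed to 108.9 to 150.1 and endothelial markers to 21.3 to 30.2, with 7 of 7 endothelial markers under 20.

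The change over the first 4 h was small, and no gene passed the test on its own. The bright chemokine genes Ccl2 and Cxcl1 read lower at 4 h by more than 2-fold in both lines, as did the dimmer Cxcl2, whose signal was under 30 at 4 h. Genes of sterol synthesis and of the amino acid response read slightly higher in both lines, and genes of DNA replication and ribosome biogenesis slightly lower. In limma's moderated test 0 of 12161 genes had a Benjamini-Hochberg adjusted p under 0.05 (0%), and the smallest adjusted p was 0.265. An unadjusted p under 0.05 was reached by 384 genes with higher values at 4 h (3.16%) and by 402 with lower values (3.31%), 786 together where 608 are expected by chance. The standard error of a gene's difference was 0.12 in the median over the tested genes. With eBayes set to trend and robust, 3 genes passed (Ccl2, Cxcl1 and Nfkbiz), and with a pseudocount of 32, 2 genes passed (Ccl2 and Cxcl1).

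Counted by size and without a test, 6 genes were at least 2-fold higher in both lines (0.0493%) and 20 at least 2-fold lower (0.164%). Beside them, 30 genes went opposite ways in the lines by at least 2-fold each. Most of the 6 and 20 genes were dim. Among 8168 genes that read 50 or more on both arrays of a state, 0 were 2-fold higher in both lines (0%), and 3 were 2-fold lower (0.0367%), namely Ccl2, Cxcl1 and Cxcl2. Cxcl2 reached 50 only before treatment, and with a pseudocount of 32 its difference was -0.68. At the smaller limit of 0.58 in both lines, 68 genes were higher (0.559%) and 93 lower (0.765%). Only 4 of the higher and 7 of the lower genes read 50 or more on both arrays of a state. A difference of any size had the same sign in both lines for 3347 genes on the higher side (27.5%) and 3250 on the lower side (26.7%), which is the background for the counts of list members below. The median difference over all tested genes was 0.013 in TDAG8 cells and -0.01 in vector cells. Across genes the differences of the lines correlated at 0.041 over all tested genes and at 0.206 over the 8168 brighter ones; genes are not independent replicates, and each value comes from single arrays.

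**Figure D1:**
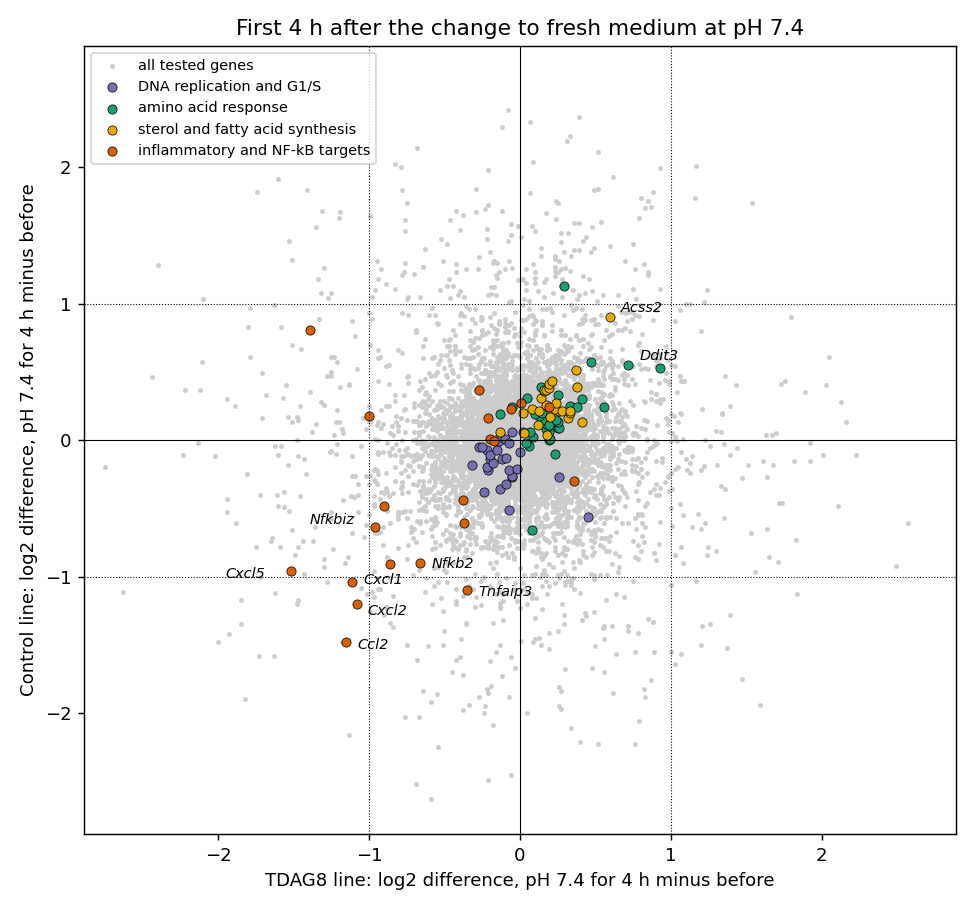
Log2 difference between pH 7.4 for 4 h and before treatment in TDAG8 cells (x axis) and the control line (y axis), 1 point per tested gene and coloured points for members of 4 gene lists. Dotted lines mark a log2 difference of 1. Ccl2, Cxcl1 and Cxcl2 lie beyond -1 in both lines, the sterol genes lie mostly in the upper right quadrant, and the cloud of all genes is centred at 0.

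Chemokine and NF-kB genes held the lowest list median of the 27 lists. Of 26 such genes on the array 21 were tested. Of these, 12 read lower in both lines (57.1%, against 26.7% of all tested genes) and 2, the dim Il6 and Lif, read higher. The list's median difference was -0.383 in TDAG8 cells and -0.438 in vector cells, beside 0.013 and -0.01 over all genes. None passed the adjusted test. On the lower side 11 had an unadjusted p under 0.05, as had 3.31% of all tested genes, and 0 on the higher side. Of the list 7 were lower by at least 0.58 in both lines, as were 0.765% of all tested genes. The list was drawn up with earlier results of these data known, so these counts describe it and do not test it.

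A part of NF-kB in the lower values was not tested. The sequences just upstream of 4 of the list's genes, chosen after their values were seen, are shown, and all 4 hold the motif marked in capitals. Each is the 250 bases before the gene's annotated start, 5′ to 3′ on the gene's strand, from RefSeq on GRCm38.p6, with matches to the motif GGGNNTTTC on either strand in capitals. The Cxcl1 window is chr5:90890995-90891244 (+), the Cxcl2 window chr5:90903649-90903898 (+), the Nfkbia window chr12:55492648-55492897 (-), and the Nfkb2 window chr19:46305680-46305929 (+), which is 1 of 3 annotated for that gene.
Cxcl1: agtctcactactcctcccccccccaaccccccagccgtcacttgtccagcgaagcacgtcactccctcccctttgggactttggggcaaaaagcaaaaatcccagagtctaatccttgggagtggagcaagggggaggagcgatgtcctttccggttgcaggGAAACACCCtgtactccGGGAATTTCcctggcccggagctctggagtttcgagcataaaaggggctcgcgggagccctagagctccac
Cxcl2: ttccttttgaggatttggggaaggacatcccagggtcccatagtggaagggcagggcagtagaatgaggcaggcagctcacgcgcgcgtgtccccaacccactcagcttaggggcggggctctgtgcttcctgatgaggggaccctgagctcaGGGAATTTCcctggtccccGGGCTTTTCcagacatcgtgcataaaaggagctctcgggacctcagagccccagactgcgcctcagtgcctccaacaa
Nfkbia: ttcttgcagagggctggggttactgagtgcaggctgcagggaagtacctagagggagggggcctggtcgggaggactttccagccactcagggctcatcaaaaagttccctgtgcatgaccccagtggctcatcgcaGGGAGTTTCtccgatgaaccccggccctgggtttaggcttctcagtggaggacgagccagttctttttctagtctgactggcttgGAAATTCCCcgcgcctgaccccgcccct
Nfkb2: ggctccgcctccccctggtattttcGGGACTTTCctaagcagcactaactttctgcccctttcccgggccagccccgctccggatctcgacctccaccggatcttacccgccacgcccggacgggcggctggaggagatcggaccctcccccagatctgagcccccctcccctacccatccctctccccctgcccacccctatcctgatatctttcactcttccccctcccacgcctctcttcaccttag
In the Cxcl1 window the matches are GAAACACCC, on the opposite strand and beginning 88 bases before the start, and GGGAATTTC at 71 bases. The Cxcl2 window holds GGGAATTTC at 97 bases and GGGCTTTTC at 78 bases. In Nfkbia they are GGGAGTTTC at 113 bases and GAAATTCCC, on the opposite strand, at 28 bases, and in Nfkb2 GGGACTTTC at 225 bases. No matches overlap each other in these windows. The motif occurs in 1223 of 32851 windows of this length in the table (3.72%), and in at least 1 window of 433 of the 9861 tested genes found there (4.39%). Of the 21 tested members of the NF-kB list 14 were found in the table, and 7 of those hold a match (50%). Of the 7, Cxcl1, Cxcl2, Nfkb2, Tnfaip3, Nfkbia and Csf1 read lower in both lines at 4 h, and Il6, at signals of at most 4.6, did not. Ptgs2, Socs3, Cxcl10, Cxcl12, Il11, Il1b and Lif hold none, though Il1b also read lower in both lines, by -0.17 and -0.01. Zc3h12a, a gene outside the list that is described below, was lower in both lines and holds none. Of the named genes found in the table, 3 of 8 with lower values (37.5%) and 1 of 9 with higher values (11.1%) hold a match. A match is a description of the letters and not evidence of binding, and the list itself was built from NF-kB targets. Only this pattern was searched, so a window without a match is not shown to lack NF-kB sites of other forms.

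Among the ligands, Ccl2, which encodes a monocyte attractant, read 1455.5 before and 692.3 at 4 h in TDAG8 cells. In vector cells it read 1209.5 and 425.7. Both arrays at 4 h lay below both arrays before treatment. The log2 difference was -1.15 in TDAG8 cells and -1.48 in vector cells, a mean of -1.31 (SE 0.13, n = 2 line differences), or 2.49-fold lower, with a limma adjusted p of 0.516.

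Cxcl1, a neutrophil attractant, read 1029.7 and then 490.4 in TDAG8 cells, and 1175.3 and then 561.5 in vector cells. Its mean difference was -1.08 (SE 0.09), or 2.11-fold lower, with a limma adjusted p of 0.516. The 3 probe sets of Cxcl1 all had lower values in both lines. The related gene Cxcl2 was dimmer, at 65.4 and then 29.9 in TDAG8 cells and 60.1 and then 24.7 in vector cells. Its mean difference was -1.14 (SE 0.11), or 2.21-fold lower, with the same adjusted p. For each of these 3 chemokine genes the 4 h arrays lay below both arrays before treatment.

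The other chemokines on the list were dim. Ccl7, a monocyte attractant, read 41.1 and then 21.7 in TDAG8 cells and 34 and then 16.8 in vector cells (-0.89, SE 0.09). Cxcl5, a neutrophil attractant, read 29.9 and then 9.1, and 23 and then 10.1 (-1.24, SE 0.18). For Ccl5 the lines went opposite ways at signals of at most 13.5. Cxcl10 and Cxcl12 differed by 0.03 and 0.05 in the mean, again with opposite signs in the lines.

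Factors and inhibitors of the NF-kB pathway were lower as well. Nfkbiz, which encodes a nuclear cofactor of NF-kB, read 570.9 and then 296.6 in TDAG8 cells and 528.9 and then 344.4 in vector cells. Its mean difference was -0.80 (SE 0.13). Nfkb2, an NF-kB subunit gene, read 146 and then 91, and 130.2 and then 69.4 (-0.78, SE 0.12). Both genes had 4 h arrays below both arrays before treatment.

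Relb, another subunit gene, read 60.4 and then 31.4 in TDAG8 cells and 51.4 and then 36.6 in vector cells (-0.69, SE 0.14). Nfkbia, which encodes the inhibitor IkBa, was the brightest member, at 2296.2 and then 1869.8, and 3629.8 and then 2163.9. Its difference was -0.37 in TDAG8 cells and -0.61 in vector cells, and its other probe sets were also lower in both lines. Tnfaip3, which encodes the deubiquitinase A20, differed unequally, by -0.35 in TDAG8 cells and -1.1 in vector cells, at signals of at most 62.4.

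Zc3h12a, which encodes an endonuclease that degrades inflammatory messenger RNAs, was outside the list and read 109.8 and then 39.2 in TDAG8 cells. In vector cells it read 75.7 and then 37.3. Its mean difference was -1.21 (SE 0.16), or 2.31-fold lower, with a limma adjusted p of 0.683, and its second, dimmer probe set was also lower in both lines. Csf1, the macrophage growth factor gene, was lower by less (-0.41, SE 0.09), at 324.1 and then 246.1, and 346.1 and then 259.7.

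Not all inflammatory genes shared these lower values. Ptgs2, the inducible cyclooxygenase gene, read 357.3 and then 305.1 in TDAG8 cells and 277.3 and then 313.2 in vector cells, a mean difference of -0.02 (SE 0.18). Its second probe set, at a mean signal of 106, was lower in both lines, at -0.45 in TDAG8 cells and -0.22 in vector cells. Vcam1, an adhesion molecule gene, differed by -0.10 (SE 0.16) at signals between 580.7 and 849.9. Socs3, a cytokine signalling inhibitor gene, differed by 0.09 (SE 0.14) at 191.6 to 234.4. Il6 and Lif read under 12 on all 4 arrays, and Tnf, Il1a, Csf2, Ccl20 and Icam1 were below the filter. Of 8 leukocyte markers 6 were under 20 on all 4 arrays, and the part of other cell types in these values was not tested.

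Later and acid arrays of the same cells are given side by side, and they share the arrays before treatment with the 4 h comparison. At pH 7.4 for 12 h Ccl2 read 916.3 in TDAG8 cells and 560.4 in vector cells, Cxcl1 689.4 and 793.6, and Cxcl2 44.5 and 35.8. At pH 6.4 for 4 h Ccl2 read 2971.3 and 3072.6, Cxcl1 4448.3 and 4092.7, and Cxcl2 662.6 and 372.4. In each line the array at pH 7.4 for 4 h held the lowest value of these 3 genes among the states just named and before treatment. For the list, the median difference from before treatment at pH 7.4 for 12 h was -0.055 in TDAG8 cells and -0.465 in vector cells, and at pH 6.4 for 4 h it was 1.52 and 0.885.

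**Figure D2:**
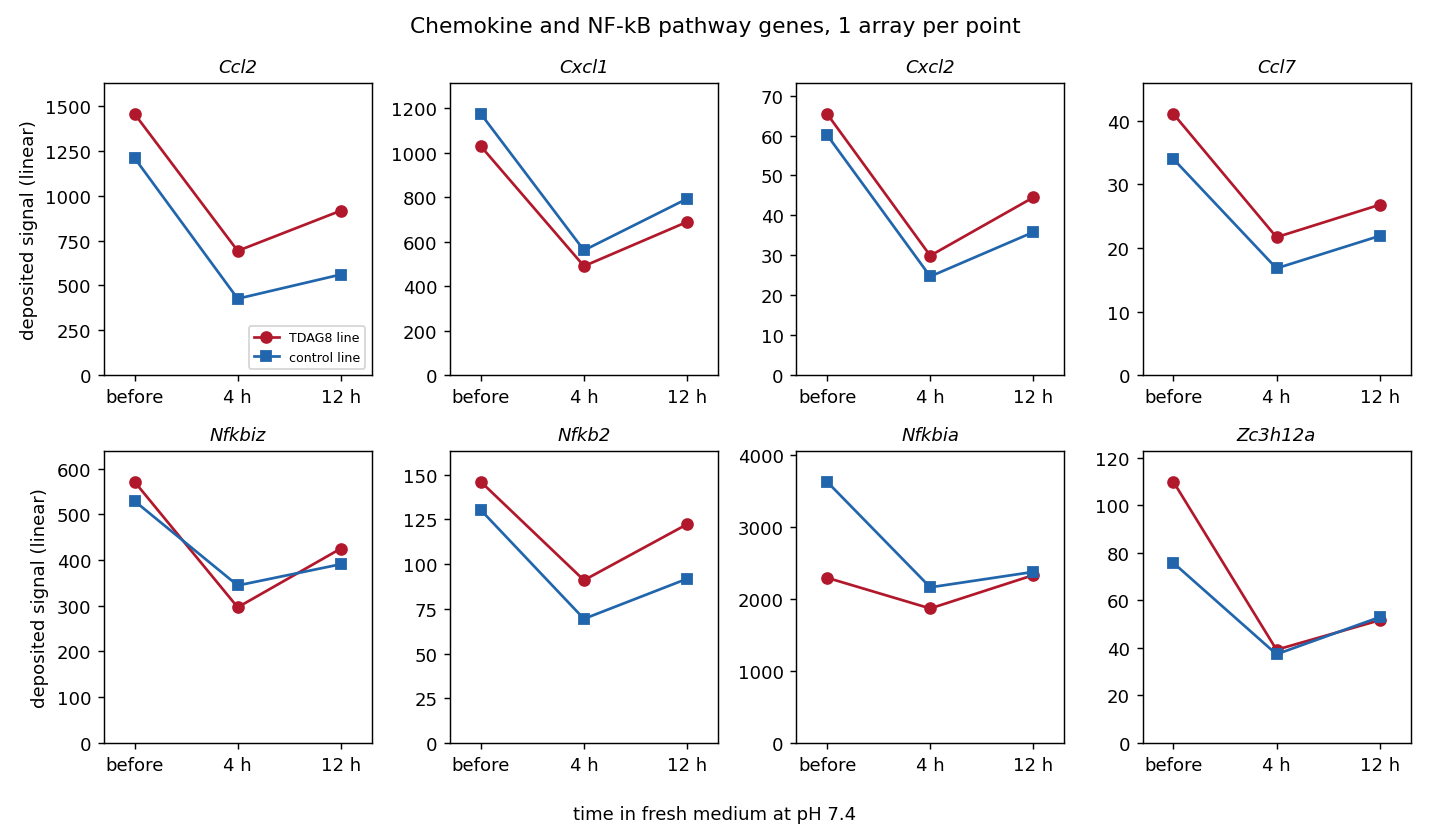
Deposited signal (linear, y axis from 0) of 8 chemokine and NF-kB pathway genes before treatment and after 4 h and 12 h at pH 7.4, with 1 array per point and no error bars. Red circles are the TDAG8 line and blue squares the control line. In every panel both lines read lower at 4 h than before treatment, for example 692.3 against 1455.5 for Ccl2 in TDAG8 cells.

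Other genes with lower values in both lines, named by the rule in the methods, had smaller differences, and none passed. Wnt7b, a Wnt ligand gene, read 116.1 and then 76.7 in TDAG8 cells and 99.4 and then 61.4 in vector cells (-0.64, SE 0.14). Tinagl1, which encodes a secreted matrix protein, read 131.1 and then 87.6, and 123.9 and then 73.3 (-0.66, SE 0.15). Med18, a Mediator subunit gene, differed by -0.51 in TDAG8 cells and -1.25 in vector cells.

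The membrane protein gene Ttyh3 (-0.67, SE 0.10), the Hippo pathway scaffold gene Wwc1 (-0.62, SE 0.22) and the zinc finger gene Zfp593 (-0.52, SE 0.09) completed the 12. Of the 9 other probe sets of these 12 genes with a mean signal of 20 or more, 7 were lower in both lines; the exceptions were a second probe set each of Wnt7b and Zfp593.

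Sterol and fatty acid synthesis genes read higher in both lines with few exceptions. Of 27 measured genes 26 were higher in both lines (96.3%, against 27.5% of all tested genes) and 0 were lower in both. The list's median difference was 0.192 in TDAG8 cells and 0.23 in vector cells, and the means of its members ran from -0.03 to 0.75. None passed the adjusted test, and 3 had an unadjusted p under 0.05 on the higher side, as had 3.16% of all tested genes.

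The largest difference was that of Acss2, which encodes the enzyme making acetyl-CoA from acetate. It read 401.8 and then 594.4 in TDAG8 cells and 225.8 and then 426.7 in vector cells, a mean difference of 0.75 (SE 0.17), or 1.68-fold higher, with a limma adjusted p of 0.683. The 4 h arrays lay above both arrays before treatment. Its second bright probe set gave smaller values, 0.32 and 0.49 in the lines, and it stands for the gene when arrays are centred on their median (mean 0.39) or left as deposited (0.40).

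In cholesterol synthesis, Mvd read 444.7 and then 567.2, and 345.3 and then 497.4 (0.44, SE 0.11). Pmvk read 620.3 and then 793.6, and 530.8 and then 700.2 (0.39, SE 0.10). The isomerase gene Idi1 differed by 0.32 (SE 0.16), the demethylase gene Cyp51 by 0.28 (SE 0.11) and the synthase gene Hmgcs1 by 0.23 (SE 0.10). These 5 enzymes include early and late steps of cholesterol synthesis.

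Of the fatty acid enzymes, the citrate lyase gene Acly differed by 0.30 (SE 0.11), the synthase gene Fasn by 0.23 (SE 0.09) and the desaturase gene Scd1 by 0.25 (SE 0.10). The regulator gene Srebf2 was the member with opposite signs, -0.13 and 0.06, and Srebf1 differed by 0.11 (SE 0.09). At pH 7.4 for 12 h the list's median difference from before treatment was 0.204 in TDAG8 cells and 0.317 in vector cells, and at pH 6.4 for 4 h -0.008 and 0.11.

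Amino acid response genes were also higher in both lines, by similar amounts. Of 35 genes on the array 34 were tested, 27 were higher in both lines (79.4%) and 0 were lower in both, with medians of 0.192 and 0.165. None passed the adjusted test, and 8 had an unadjusted p under 0.05 on the higher side, as had 3.16% of all tested genes.

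Ddit3, which encodes the stress factor CHOP, read 202.6 and then 325.9 in TDAG8 cells and 272.5 and then 402.9 in vector cells. Its mean difference was 0.64 (SE 0.10), or 1.56-fold higher, with a limma adjusted p of 0.683 (0.36 with its dim second probe set averaged in), and its 4 h arrays lay above both arrays before treatment. Slc6a9, a glycine transporter gene, read 494.6 and then 676, and 388.9 and then 582.3 (0.52, SE 0.13). Chac1, a glutathione-degrading enzyme gene, read 199.5 and then 286.4, and 222.6 and then 267 (0.40, SE 0.12).

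Trib3, a pseudokinase gene, read 368.5 and then 483.1 in TDAG8 cells and 425.1 and then 531.1 in vector cells (0.36, SE 0.11). The cystine transporter gene Slc7a11 (0.73, SE 0.14) and the hormone gene Fgf21 (0.71, SE 0.25) had larger differences at signals of at most 23.2. The factor gene Atf4 itself differed by 0.13 (SE 0.10) and the asparagine synthetase gene Asns by 0.11 (SE 0.10). In vector cells their differences were only 0.06 and 0.01. The deposited signals there were lower at 4 h, 3395.9 and then 3203.2 for Atf4 and 2327 and then 2242.5 for Asns. The serine synthesis genes Phgdh and Psat1 both differed by 0.01 (SE 0.09). Among unfolded protein response genes, 7 of 18 were higher in both lines and 4 lower, with medians of 0.033 and 0.068 (range of means -0.20 to 0.29).

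**Figure D3:**
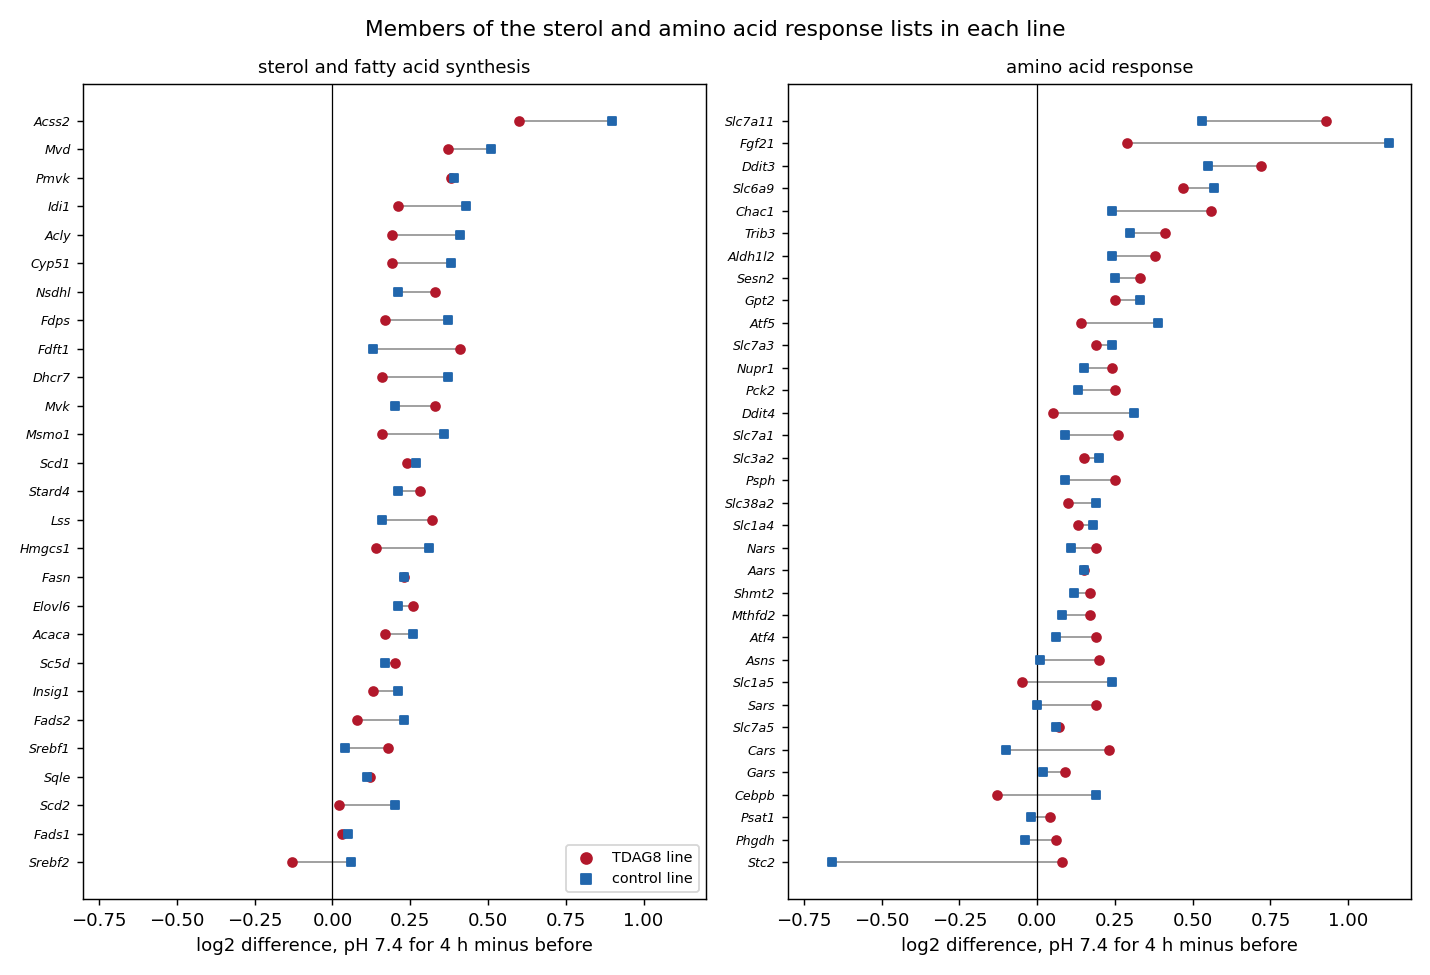
Log2 difference between pH 7.4 for 4 h and before treatment (x axis) for each tested member of the sterol and fatty acid synthesis list (27 genes) and of the amino acid response list (34 genes), 1 value per line. Red circles are the TDAG8 line, blue squares the control line, and grey bars join them. In the sterol list 26 of 27 members lie to the right of 0 in both lines, and in the amino acid list 27 of 34, with Acss2 at 0.60 and 0.90 and Ddit3 at 0.72 and 0.55.

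Genes linked to FOXO factors, which are active when growth factor signalling is low, were partly higher. Of 16 tested members 8 were higher in both lines (50%, against 27.5% of all tested genes) and 2 lower (12.5%, against 26.7%), with medians of 0.196 and 0.091. Sesn3, a sestrin gene that restrains growth signalling, read 15.1 and then 27.9 in TDAG8 cells and 13.3 and then 28 in vector cells (0.83, SE 0.17). Gadd45a, a growth arrest gene, read 612.9 and then 787, and 409.9 and then 554.2 (0.40, SE 0.09).

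Foxo1 itself read 18.6 and then 37.6, and 27.2 and then 34.8 (0.58, SE 0.18), but its other probe sets above a mean signal of 20 gave 0.17 and -0.17, and 0.17 and 0.36, in the lines. None of these passed the adjusted test. Txnip, an inhibitor of glucose uptake driven by the sugar sensor MondoA, read 331.3 and then 448.6 in TDAG8 cells and 326.7 and then 415.9 in vector cells (0.40, SE 0.14). Its relative Arrdc4 was dim (0.49, SE 0.11, at signals of at most 16).

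The 12 named genes with higher values, of which Acss2 and Ddit3 are described above, belonged to several pathways. Zfp467, a zinc finger factor gene, read 70.5 and then 133.7 in TDAG8 cells and 48 and then 77.9 in vector cells (0.78, SE 0.11). Trp53inp1, a p53-inducible autophagy gene, read 80.7 and then 141.6, and 71.9 and then 108.4 (0.68, SE 0.12). Mxd4, which encodes a partner of Max that opposes Myc, read 113.1 and then 167.1, and 96.1 and then 146.7 (0.58, SE 0.11). For Trp53inp1 and Mxd4 the 4 h arrays lay above both arrays before treatment.

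The transcription factor gene Maf read 108.5 and then 161.1 in TDAG8 cells and 91.3 and then 143.3 in vector cells (0.60, SE 0.10). Ccn4, a secreted matricellular protein gene of the Wnt pathway, read 121.2 and then 182.2, and 63.3 and then 92.9 (0.56, SE 0.10). Lrrc17, a secreted leucine-rich repeat protein gene, read 33.9 and then 56.1, and 30.1 and then 57 (0.75, SE 0.09), and its sign turned (-0.08) when all its probe sets were averaged.

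The membrane protein genes Pxmp4 (0.53, SE 0.09) and Tlcd1 (0.53, SE 0.09), the gene Mospd1 (0.55, SE 0.10) and the ribosomal protein gene Rpl39 (0.52, SE 0.19) completed the set. The second probe set of Pxmp4, at a mean signal of 51.8 against 70, gave 0 and -0.02 in the lines, and averaging all probe sets gave 0.26 for Pxmp4 and 0.19 for Tlcd1. None of the 12 passed, with limma adjusted p-values of 0.683 to 0.759. Of 11 other probe sets of these genes with a mean signal of 20 or more, 9 were higher in both lines; the exceptions were this one of Pxmp4 and one of Zfp467, at 0.34 and -0.07. At pH 7.4 for 12 h, again set against the same arrays before treatment, Mxd4 read 307 and 232.9, Trp53inp1 228.8 and 178.6 and Maf 234.2 and 180.5. At pH 6.4 for 4 h these genes read 85.9 and 70.8, 75.7 and 85.7, and 92.7 and 51.6.

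**Figure D4:**
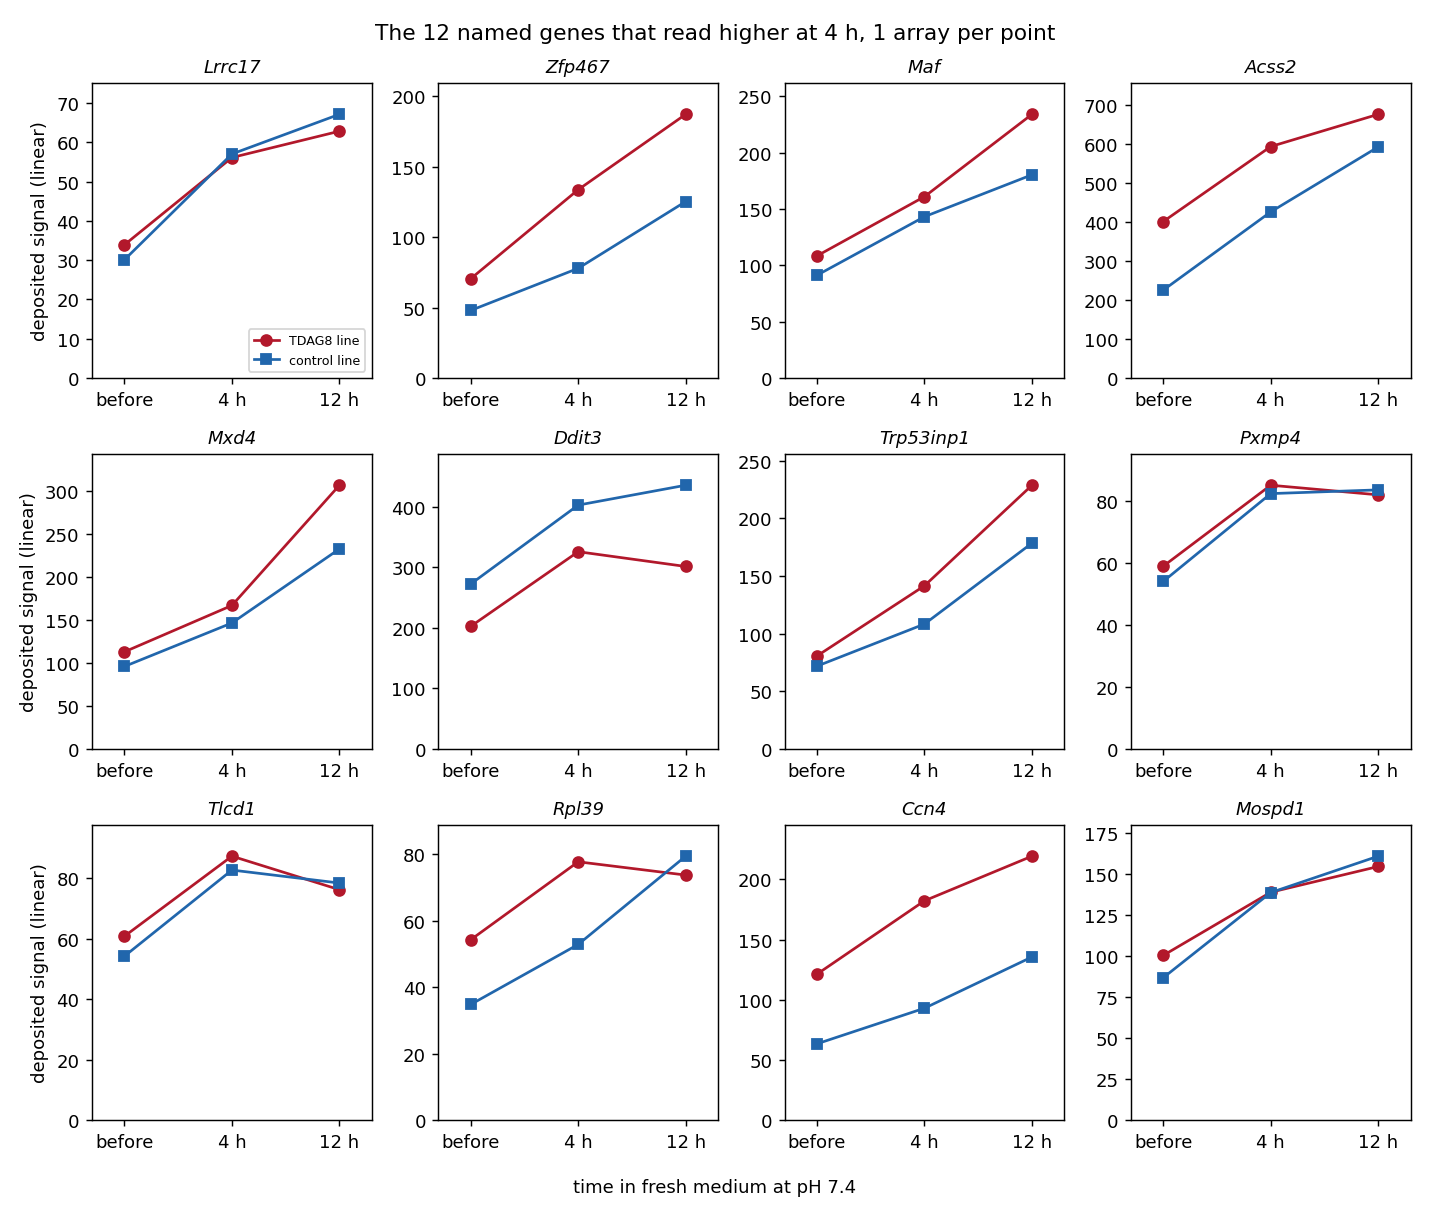
Deposited signal (linear, y axis from 0) of the 12 named genes with higher values at 4 h, before treatment and after 4 h and 12 h at pH 7.4, with 1 array per point and no error bars. Red circles are the TDAG8 line and blue squares the control line. In every panel both lines read higher at 4 h than before treatment, for example 325.9 against 202.6 for Ddit3 in TDAG8 cells.

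DNA replication and G1/S genes were slightly lower. Of 29 tested genes 22 were lower in both lines (75.9%) and 1 was higher, with medians of -0.118 in TDAG8 cells and -0.138 in vector cells. Cdc25a, a phosphatase gene of cell cycle entry, read 148.7 and then 122.9, and 156.7 and then 121.9 (-0.31, SE 0.09), and was the only member with an unadjusted p under 0.05. The licensing factor genes Cdc6 (-0.22, SE 0.09) and Mcm3 (-0.21, SE 0.09) were lower in both lines, and Pcna differed by -0.04 (SE 0.09). With all probe sets of a gene averaged, 14 members were lower in both lines.

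Mitosis genes had no shared direction, with 7 of 27 higher in both lines, 12 lower, and medians of -0.001 and -0.057. At pH 7.4 for 12 h, against the same arrays before treatment, the G1/S median was -0.633 in TDAG8 cells and -0.514 in vector cells, and the mitosis median -0.299 and -0.179.

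Myc targets and ribosome biogenesis genes were lower to a like degree. Of 26 tested genes 19 were lower in both lines (73.1%) and 2 were higher, with medians of -0.15 and -0.181. Noc2l, a ribosome assembly gene, read 444.8 and then 335.2 in TDAG8 cells and 387 and then 328.6 in vector cells (-0.32, SE 0.10), the only member with an unadjusted p under 0.05. The spermidine synthase gene Srm differed by -0.26 (SE 0.12) and the pseudouridine synthase gene Dkc1 by -0.25 (SE 0.11). Myc itself differed by -0.02 (SE 0.10), and the cytosolic ribosomal protein genes by a median of 0.016 and -0.046, with 2 of 13 higher and 2 lower in both lines.

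Growth signalling genes were mixed. Of 20 immediate early genes 9 were lower in both lines (45%, against 26.7% of all tested genes) and 3 higher (15%, against 27.5%). The median of their mean differences was -0.006. On the lower side 4 had an unadjusted p under 0.05, as had 3.31% of all tested genes: Maff (-0.49, SE 0.10), Ier3 (-0.44, SE 0.10), Fosl1 (-0.37, SE 0.12) and Junb (-0.31, SE 0.10). Ier3 was the brightest of these, at 939.3 and then 669.9 in TDAG8 cells and 934.1 and then 708 in vector cells. Fos read under 10 on all 4 arrays. Of 12 ERK feedback genes 6 were lower in both lines (50%) and 1 higher (8.33%). The largest difference was that of Etv4, which read 102.7 and then 50.6 in TDAG8 cells and 71.4 and then 59.4 in vector cells (-0.63, SE 0.26). The cyclin gene Ccnd1 read 979.8 and then 748, and 868.2 and then 608.9 (-0.46, SE 0.09). The phosphatase gene Dusp6, a known ERK target, differed by -0.05 (SE 0.09).

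Of 12 genes of TGF-beta and BMP feedback 8 were lower in both lines (66.7%, against 26.7% of all tested genes) and 2 higher (16.7%, against 27.5%). The ligand gene Tgfb1 read 164.4 and then 81.3 in TDAG8 cells and 90 and then 72.7 in vector cells (-0.66, SE 0.19), and the inhibitor gene Smad7 read 32.8 and then 17.3, and 29.1 and then 18.2 (-0.74, SE 0.11). Of 15 YAP and SRF target genes 10 were lower in both lines (66.7%) and 1 higher (6.67%), with medians of -0.195 and -0.237, led among bright genes by the calponin gene Cnn2 (-0.28, SE 0.09). Of 28 glycolysis and HIF target genes 16 were lower in both lines (57.1%) and 4 higher (14.3%). The lactate exporter gene Slc16a3 read 373.3 and then 201, and 259.6 and then 204.9 (-0.62, SE 0.18). None of these genes passed the adjusted test.

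The remaining lists had smaller or less even differences. Of 16 circadian clock genes 14 had opposite signs in the lines. Of 21 oxidative phosphorylation genes 13 did, with means between -0.12 and 0.05. Heat shock genes were lower in both lines for 8 of 14 members and higher for 1, with medians of -0.023 and -0.144. Interferon response genes were higher in both lines for 7 of 14 members and lower for 2, with medians of 0.119 and 0.093, and the 4 LXR targets had medians of 0.274 and -0.024. NRF2 antioxidant genes had medians of 0.011 and 0.093 and p53 targets -0.074 and 0.047. Of 19 growth factor and receptor genes 3 were higher in both lines and 5 lower, with medians of -0.005 and -0.008 and means between -0.85 and 0.29. The abundant reference genes, such as Actb and Tbp, were lower in both lines for 6 of 9 members, with medians of -0.043 and -0.082, and with all probe sets of a gene averaged the list's median over the lines was 0.001 in place of -0.055.

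**Figure D5:**
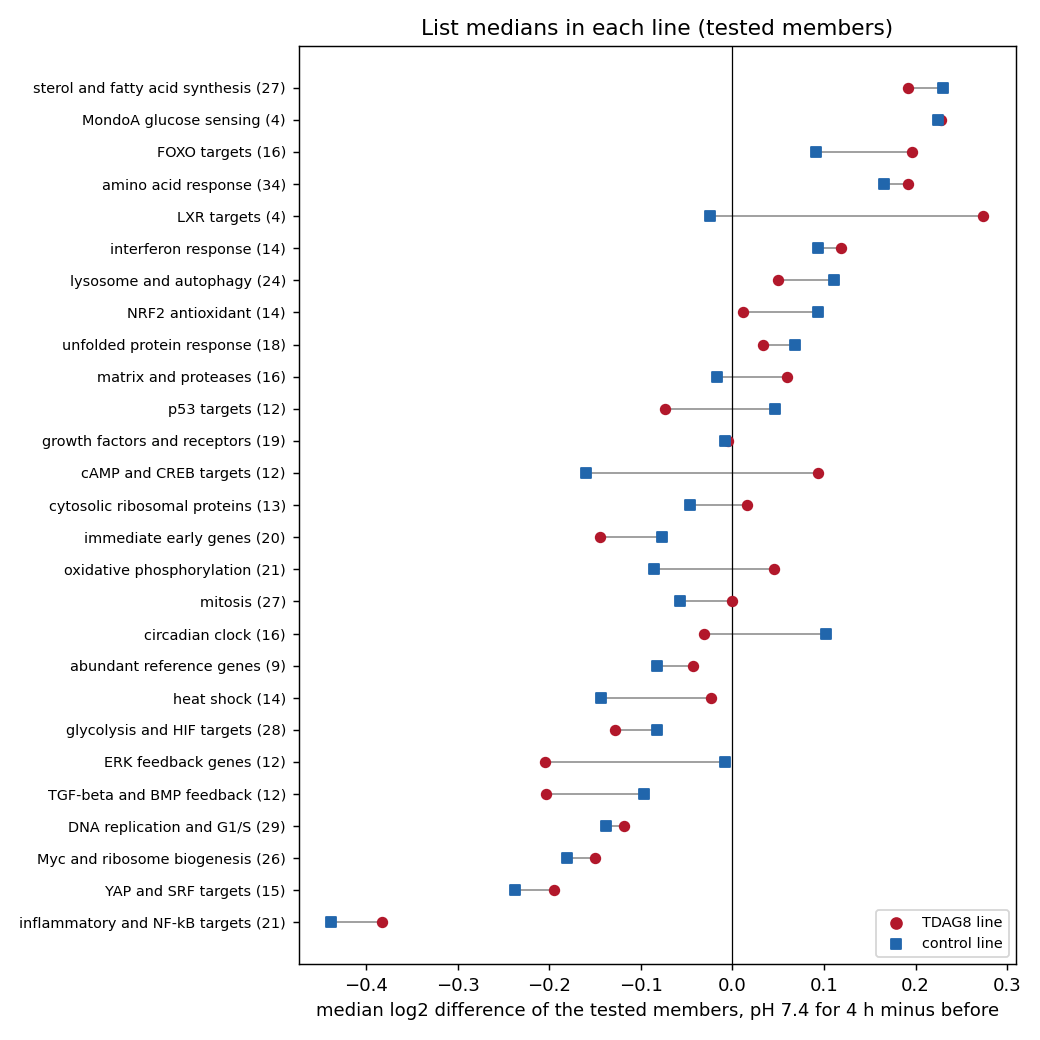
Median log2 difference between pH 7.4 for 4 h and before treatment (x axis) of the tested members of 27 gene lists, with the number of members in brackets. Red circles are the TDAG8 line, blue squares the control line, and grey bars join them. The NF-kB list lies lowest, at -0.383 and -0.438, and the sterol list, at 0.192 and 0.23, lies at the upper end with the 4 MondoA genes, at 0.228 and 0.224.

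The lines were compared only side by side, since 1 array per line and state leaves no test of a difference between them. Taken singly, the TDAG8 line had 111 genes at least 2-fold higher and 151 at least 2-fold lower, and the control line 191 and 194. In 30 genes the lines went opposite ways by at least 2-fold each, and 0 of these had a signal of 50 or more in both lines. No array of cells left in the old medium for the same 4 h is analysed here, so the exchange of medium and 4 more hours without serum cannot be told apart.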

How the data were processed

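The study measured RNA of LLC cells on 10 Affymetrix Mouse430 2.0 arrays, 1 for each line and state, and 4 of them are compared here. The authors deposited 1 table of intensity values, linear signal per probe set, and the software that made it is not given in the sources used here. Per the labels' protocols, 2 µg of total RNA was copied into biotin-labelled cRNA. All arrays had a 2% trimmed mean of 100, which shows that the deposited values had been scaled.

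Of 45101 probe sets, 34945 had 1 gene symbol; 932 with several, 9160 with none and 64 controls were left out of the gene tests. Arrays were quantile normalised and log2(signal + 2.4) was taken, 2.4 being the 20th percentile of all values. A gene was its probe set with the highest mean, and genes at or above the 40th percentile (log2 3.17, a signal of about 6.6) were tested. limma 3.58.1 in R 4.3.3 (lmFit, eBayes) was fitted to the 6 arrays never in acid, with state and line as terms and 2 residual degrees of freedom (prior 2.05). The contrast is the mean of the 2 line differences, with Benjamini-Hochberg adjustment over all tested genes and a threshold of 0.05. The fit was also run on simulated data with planted changes, whose recovery is not reported here. The number of arrays limits the precision, so the absence of passing genes does not show that none changed.

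The rule named the 12 genes in each direction that passed or, as none did, had the largest smaller-of-the-lines difference with a signal of at least 50 on both arrays of the higher state. Predicted genes were skipped. It also drew up to 4 members of each of 27 gene lists with the largest mean difference, but not all of these members are printed. Members whose values are given beyond these, and the genes in the sequence windows, were chosen after their values were seen. The members and lists were chosen with earlier results of these data known. Alternatives changed the scaling, pseudocount, filter, probe set rule, model and arrays. Promoter sequences are from RefSeq. Of the tested NF-kB list members, Ccl2, Ccl7, Nfkbiz, Cxcl5, Relb, Ccl5 and Vcam1 were not matched there and were not searched. All of these but Ccl5 and Vcam1 read lower in both lines.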

Additional observations from a re-analysis of the deposited data

Results flagged for a closer look

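Wdr70, a WD repeat protein gene, had opposite signs in the lines, with a log2 difference of 0.64 in TDAG8 cells and -0.67 in vector cells, 1.3 apart. It read 86.5 before and 132.7 at 4 h in TDAG8 cells, and 111.8 and 70.2 in vector cells. Targets of cAMP and CREB had a list median of 0.093 in TDAG8 cells and -0.16 in vector cells, 0.253 apart, over 12 tested members of which 3 were higher and 3 lower in both lines. The kinase gene Sik1 was lower in both (-0.48). With 1 array per line and state, neither difference between the lines was tested.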

How the results depend on the processing

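Over 19 alternatives, 455 of 456 values of the 24 named genes kept their direction; Lrrc17 turned to -0.08 when the probe sets of a gene were averaged. The count of genes passing, 0 in the reported fit, was 2 with a pseudocount of 32 and 3 with trend and robust (Ccl2 and Cxcl1 adjusted p = 0.000204, Nfkbiz 0.0331, by limma), and 0 in each fit that left out 1 array. Averaging also moved Zfp467 to 0.38, Mxd4 to 0.31, Pxmp4 to 0.26, Tlcd1 to 0.19, Wwc1 to -0.32 and Zfp593 to -0.24, and a pseudocount of 32 moved Lrrc17 to 0.45, Rpl39 to 0.33 and Ttyh3 to -0.43. Without the control array at 4 h Med18 was -0.50, and without the TDAG8 array at 4 h Wwc1 was -0.37. Ccl2 ranged from -1.47 to -1.15 and Cxcl1 from -1.12 to -1.03. The 6 genes 2-fold higher in both lines became 3 with arrays centred on their median, 16 and 1 with pseudocounts at the 5th and 40th percentiles, 0 with a pseudocount of 32, 93 without a filter, and 0 with a filter at the 60th percentile or at a signal of 50. The 20 genes 2-fold lower became 42, 5, 1, 103, 3 and 3 under those pseudocounts and filters, and 12 when probe sets were averaged. Under that averaging 14 of the G1/S genes were lower in both lines, against 22. Of 606 list medians under alternatives, 576 kept their sign. Centring on the median moved the median of all genes to -0.069 in TDAG8 cells and 0.071 in vector cells. The reported fit pairs the arrays by line, and without the line as a block 0 genes passed; the labels carry no replicate numbers to pair by.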

Other observations

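Lysosome and autophagy genes were higher in both lines for 13 of 24 tested members and lower for 4, with medians of 0.05 in TDAG8 cells and 0.111 in vector cells, and 0 passed limma's adjusted test. The folliculin gene Flcn, a regulator of nutrient sensing at lysosomes, differed by 0.25 and had the list's only unadjusted p under 0.05. At pH 7.4 for 12 h, against the same arrays before treatment, the list's medians were 0.34 and 0.31. Of 16 matrix and protease genes 5 were higher in both lines and 3 lower, with means between -0.66 and 0.84. Among them the fibronectin gene Fn1 read 935.4 before, 1212.4 at 4 h and 1889.1 at 12 h in TDAG8 cells. In vector cells it read 1243.7, 1501.7 and 2375.6, and its 4 h difference was 0.34 (SE 0.09).

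Of 1121 probe sets with no single gene symbol and a signal of 50 or more on both arrays of a state, 0 were 2-fold higher or lower in both lines. At the limit of 0.58, 0 were higher and 1 was lower, probe set 1446730_at, which read 63.5 and then 31.2 in TDAG8 cells and 56.1 and then 35.1 in vector cells.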
